A study of Homo sapiens with 6 samples.

Results

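Immediate early genes are switched on within minutes of a stimulus, without new protein synthesis, and most of their transcripts are short-lived. The IER (immediate early response) and CSRNP (cysteine and serine rich nuclear protein) genes belong to this class but are less studied than FOS, JUN or EGR1. IER2, IER5 and IER5L encode related nuclear proteins, IER5 being a partner of the heat shock factor HSF1, whereas the unrelated IER3 encodes a short-lived modulator of apoptosis and ERK signalling. CSRNP1, first named AXUD1 for its induction by AXIN1, and its relatives CSRNP2 and CSRNP3 encode nuclear proteins that can activate transcription. The 7 genes IER2, IER3, IER5, IER5L, CSRNP1, CSRNP2 and CSRNP3 were taken by name from the 58735 genes of the files. All 7 were among the 15881 genes that passed the filter on low counts.

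Expression was measured by bulk RNA-seq in MDA-MB-231, a triple-negative breast cancer line, labelled WT and grown in DMEM with 10% serum. Cells were stained with the membrane dye PKH26, which is diluted at each division, and grown for 12 days. The 1% with the brightest remaining dye were sorted as slow-cycling cells (SCC, also labelled PKH26hi). Rapid-cycling cells (RCC) were sorted from the same kind of culture at moderate dye intensity by the protocol, although another label calls them PKH26lo. Each group had 3 libraries, described as biological replicates, and no further treatment is given for either group. In such libraries, more cells expressing a gene and more RNA per cell cannot be told apart.

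Between 19498054 and 27831824 reads were counted per SCC library, and between 17655855 and 22746267 per RCC library. SCC replicate 1 stood apart by base composition. In the tenth of genes with the highest GC content (median 63.5%) its median log2 deviation from the mean of the 6 libraries was 0.41, against -0.16 to 0.03 in the other libraries. Of the MDA-MB-231 markers, VIM was at 759 to 835 CPM (counts scaled to library size) in SCC and 752 to 799 in RCC, CD44 at 347 to 367 and 336 to 361, and of the 5 markers held to be low or absent, ESR1, PGR and CDH1 were too low to be tested. The other two were detected, ERBB2 at 71.3 to 106 CPM in SCC and 73.5 to 76.2 in RCC, and EPCAM at 3.83 to 4.90 and 3.61 to 5.73. Of the 5 leukocyte markers only PTPRC passed the filter, CD3E was at 0 in 5 of the 6 libraries, and their sum was 0.613 to 3.004 CPM in SCC and 0.573 to 0.951 in RCC. The 5 markers of fibroblasts and endothelium, mainly COL1A1 and PECAM1, together lay at 15.0 to 19.6 CPM in SCC and 11.6 to 13.6 in RCC, with DCN at 0 in 2 of the 3 libraries of each group. None of these markers was called, and their part in the results was not tested. Before adjustment, the edgeR p was under 0.05 for COL1A1 and PTPRC, both higher in SCC. Their log2 fold changes were 0.50 ± 0.15 (SE, edgeR unadjusted p 0.0075) and 1.84 ± 0.73 (unadjusted p 0.029). PTPRC was near the floor, at 1.97, 0.256 and 0.711 CPM in SCC and 0.174, 0.143 and 0.559 in RCC.

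The IER genes and CSRNP1 were higher in SCC, and CSRNP2 and CSRNP3 were not. The 7 genes were selected on earlier values of this same contrast, their log2 fold changes and counts, so their values are given as a description and without a test. CPM values here use TMM scaling, a normalisation against composition differences between libraries, and log2 fold changes of SCC over RCC come with standard errors from edgeR's quasi-likelihood fit over all tested genes. In that fit 5 of the 7 genes were called higher at a Benjamini-Hochberg adjusted p under 0.05 and 0 lower, where 1.69% of all tested genes were called higher and 0.378% lower, 2.07% in either direction. The SCC libraries lay wholly above the RCC libraries for the same 5 genes, as for 14.4% of all tested genes. CSRNP1 and IER5L were called and at least 2-fold higher, as were 0.636% of tested genes. Since the same contrast led to the choice of genes, nothing is read from these counts.

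**Figure D1:**
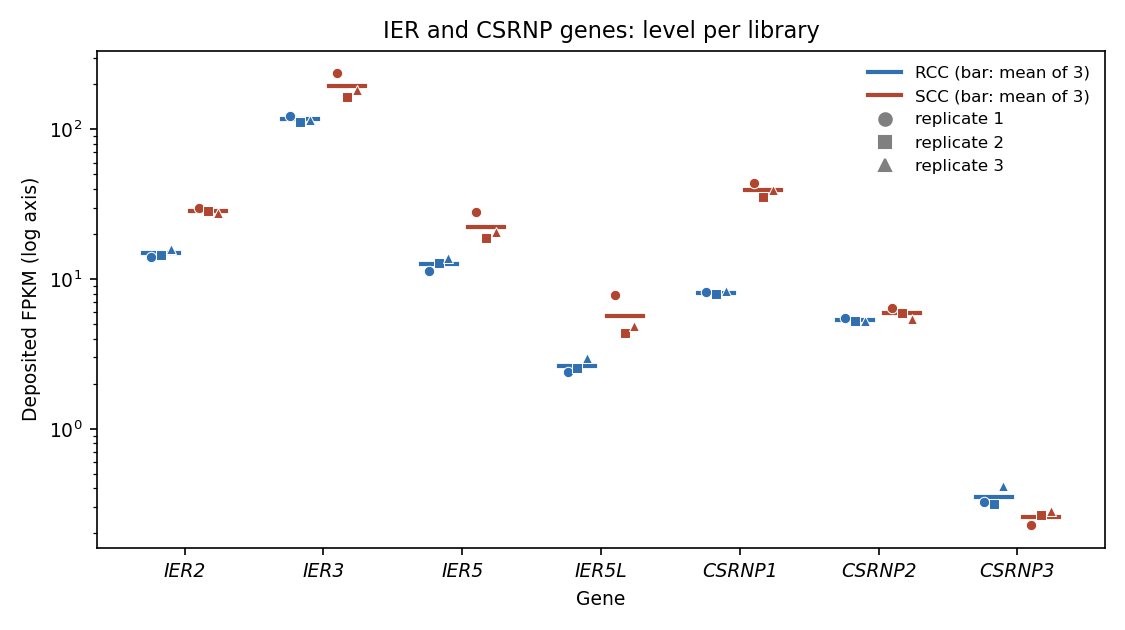
Deposited FPKM on a log axis for each of the 7 genes in the 3 RCC libraries (blue) and the 3 SCC libraries (red), with the replicate number as the symbol and the mean as a bar. IER2, IER3, IER5, IER5L and CSRNP1 sit higher in every SCC library than in any RCC library, CSRNP2 overlaps, and CSRNP3 is low and sits lower in SCC.

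CSRNP1 (ENSG00000144655, chromosome 3, 39141855 to 39154562, minus strand) showed the widest gap. It was at 144, 114 and 126 CPM in SCC replicates 1 to 3 and at 26.4, 25.4 and 26.7 in RCC replicates 1 to 3. Even the lowest SCC library was 4.25 times the highest RCC library. The mean was 128 ± 15.0 CPM against 26.2 ± 0.71 (SD, n = 3), a log2 fold change of 2.29 ± 0.095 (SE), which ranked 19th of the 15881 tested genes. Without SCC replicate 1 it was 2.20.

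The other CSRNP genes behaved differently. CSRNP2 (ENSG00000110925, chromosome 12, 51061205 to 51083664) was at 34.1, 31.0 and 28.5 CPM in SCC and at 29.1, 27.5 and 27.5 in RCC. The groups overlapped, and the log2 fold change was 0.16 ± 0.093, and 0.08 without SCC replicate 1. CSRNP3 (ENSG00000178662, chromosome 2, 165469647 to 165689407), known mainly from brain, was the lowest member at 66 to 95 counts per library. It was at 2.89, 3.37 and 3.56 CPM in SCC and 4.13, 3.92 and 5.202 in RCC. The SCC libraries were the lower ones without overlap, as for 13.4% of tested genes, and the log2 fold change was -0.43 ± 0.19.

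The makeup of the CSRNP family followed from these levels. CSRNP1 gave 86.4% ± 1.16 of the summed CSRNP FPKM (fragments per kilobase of exon, scaled to library depth) in SCC and 58.8% ± 0.62 in RCC (SD, n = 3). CSRNP2 gave 13.01% ± 1.12 against 38.7% ± 0.98, and CSRNP3 0.574% ± 0.11 against 2.54% ± 0.37. The summed FPKM of the family was 45.6 ± 4.69 in SCC and 13.8 ± 0.26 in RCC.

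IER2 (ENSG00000160888, chromosome 19, 13150415 to 13154908) varied least among the IER genes across the SCC libraries, with a coefficient of variation of 4.30%. In RCC it was 6.84%, against 5.02% for IER3. It was at 92.3, 88.0 and 84.7 CPM in SCC and at 43.6, 44.3 and 49.3 in RCC. SCC replicate 1 was only 1.07 times the mean of the other SCC libraries. The log2 fold change was 0.95 ± 0.078.

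IER3 (ENSG00000137331, chromosome 6, 30743199 to 30744554), also called IEX-1 and known as a target of NF-kB, was the most abundant member. It was at 325, 223 and 249 CPM in SCC and at 167, 151 and 158 in RCC. SCC replicate 1 was 1.38 times the mean of the other SCC libraries, and the lowest SCC library was 1.33 times the highest RCC library. The log2 fold change was 0.74 ± 0.12, and 0.57 without SCC replicate 1.

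IER5 (ENSG00000162783, chromosome 1, 181088712 to 181092899) was at 119, 78.5 and 86.4 CPM in SCC and at 47.6, 52.995 and 58.4 in RCC. Its log2 fold change was 0.84 ± 0.14, and 0.64 without SCC replicate 1. IER5L (ENSG00000188483, chromosome 9, 129175552 to 129178262), the gene most like IER5, was at 21.5, 11.8 and 13.2 CPM in SCC and at 6.56, 6.88 and 8.11 in RCC. Its log2 fold change was 1.12 ± 0.21, and 0.81 without SCC replicate 1. Both genes were highest in SCC replicate 1, at 1.44 and 1.72 times the mean of the other SCC libraries, and neither overlapped between groups.

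Within the IER family the shares lay close together in both populations. IER3 gave 77.3% ± 1.17 of the summed IER FPKM in SCC and 79.5% ± 1.85 in RCC. IER2 gave 11.6% ± 1.73 and 10.1% ± 0.69, IER5 8.89% ± 0.34 and 8.61% ± 0.97, and IER5L 2.22% ± 0.32 and 1.801% ± 0.20 (SD, n = 3). These ranges overlapped between groups for IER2, IER3 and IER5, and not for IER5L. The summed IER FPKM was 251 ± 45.2 in SCC and 147 ± 4.37 in RCC.

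Per length, the order of the genes changed between the populations only through CSRNP1, which moved from the fourth place to the second. By mean FPKM, RCC ranked IER3 (117) first, then IER2 (14.8), IER5 (12.6), CSRNP1 (8.12), CSRNP2 (5.34), IER5L (2.64) and CSRNP3 (0.350). No neighbours in that order overlapped. In SCC the order was IER3 (194), CSRNP1 (39.5), IER2 (28.5), IER5 (22.4), CSRNP2 (5.92), IER5L (5.66) and CSRNP3 (0.259). There IER2 and IER5 overlapped, as did CSRNP2 and IER5L. Among the 12768 tested protein-coding genes, CSRNP1 stood at percentile 59.3 by FPKM in RCC and 91.7 in SCC, IER3 at 97.9 and 99.0, and CSRNP3 at 9.09 and 6.27.

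The higher members are short genes. The median span of tested coding genes was 33597 bases. IER3 spans 1356 bases, IER5L 2711, IER5 4188, IER2 4494 and CSRNP1 12708, whereas CSRNP2 spans 22460 and CSRNP3 219761. IER3, IER5 and IER5L lie in 1 unbroken exonic block each in GENCODE release 29, as do 2.23% of tested coding genes. Among the 253 coding genes called higher in SCC, 8.70% do so and the median span was 13630 bases. GC content was 65.0% for IER5L, 61.6% for IER2, 58.6% for both IER3 and CSRNP1, 49.8% for IER5, 49.6% for CSRNP2 and 37.7% for CSRNP3, against a median of 48.1%. Because SCC replicate 1 deviated with GC content, the fit was repeated with a GC offset for each library. The log2 fold changes were then 0.82 for IER5L, 0.75 for IER2, 0.58 for IER3, 2.13 for CSRNP1, 0.83 for IER5, 0.15 for CSRNP2 and -0.29 for CSRNP3.

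**Figure D2:**
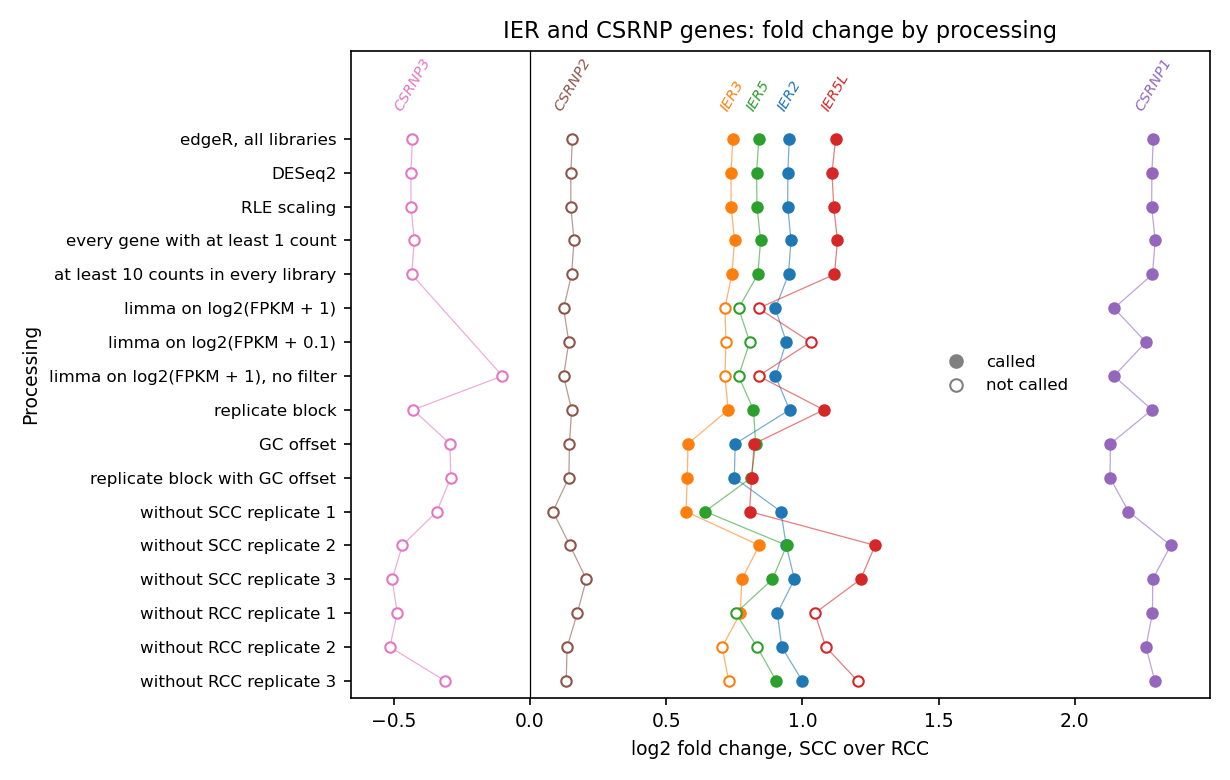
Log2 fold change of SCC over RCC (x axis) for each of the 7 genes (colours) under the fit with all libraries and 16 alternatives (rows), filled where called at an adjusted p under 0.05 over all genes. CSRNP1 and IER2 are filled in every row, IER3, IER5 and IER5L lose the call in some rows, and CSRNP2 and CSRNP3 are open throughout. CSRNP3 has no point in the filtered FPKM rows.

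CSRNP1 and IER2 were called in all 16 alternatives, with log2 fold changes from 2.13 to 2.35 and from 0.75 to 1.00. IER3 and IER5 were called in 11 and IER5L in 10. Without RCC replicate 1, 3 members were called (IER2, IER3 and CSRNP1), without RCC replicate 2 there were 2 (IER2 and CSRNP1), and without RCC replicate 3 there were 3 (IER2, IER5 and CSRNP1). All 5 were called without SCC replicate 1, 2 or 3. The alternatives refit the same libraries on which the members were chosen, so these calls describe the processing and are no test of the members.

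IER5 and IER5L, which were higher together, have promoters with the same motifs in the same order, shown here because IER5 is known as a target and partner of HSF1. The sequences are the bases before the RefSeq start on GRCh38.p14, written 5′ to 3′ on each gene's own strand. They lie at chr1:181088450-181088699 on the plus strand for IER5 and at chr9:129178263-129178511 on the minus strand for IER5L. Capitals mark the heat shock element GAANNTTC and the CCAAT box on the other strand (ATTGG).
IER5: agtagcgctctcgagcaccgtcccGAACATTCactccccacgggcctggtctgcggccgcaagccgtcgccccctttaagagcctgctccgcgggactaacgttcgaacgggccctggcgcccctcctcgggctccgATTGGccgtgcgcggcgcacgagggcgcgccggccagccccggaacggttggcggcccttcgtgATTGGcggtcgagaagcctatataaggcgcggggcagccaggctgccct
IER5L: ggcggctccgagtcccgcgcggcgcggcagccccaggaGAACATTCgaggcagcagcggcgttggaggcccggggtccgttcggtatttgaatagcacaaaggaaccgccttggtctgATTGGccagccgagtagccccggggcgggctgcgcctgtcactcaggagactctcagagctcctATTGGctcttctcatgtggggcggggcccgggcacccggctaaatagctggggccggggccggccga

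Each window holds GAACATTC, the only heat shock element in it, beginning 226 bases before the start in IER5 and 212 in IER5L. Each also holds 2 CCAAT boxes on the other strand, beginning 113 and 49 bases before the start in IER5 and 132 and 68 in IER5L. In both genes the boxes are 64 bases apart, and the share of other windows with such a spacing is not given. A heat shock element (GAANNTTC or TTCNNGAA) was found in 11.6% of the 35116 promoter windows of 250 bases in the RefSeq table. A CCAAT box on either strand was found in 32% and the combination with at least 2 boxes in 1.12%. Of the 10131 tested coding genes with an entry, 12.0% held a heat shock element and 41.4% a CCAAT box. Of the 180 called higher, 16.7% and 48.3% did. For the combination, only the share of all windows is given. The CCAAT box was added after the sequences had been seen. A match is a description of letters and not a shown site.

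A CSRNP1 promoter window is shown because this member had the widest gap. It is the RefSeq window that held matches, chr3:39153592-39153841 on the minus strand, and lies inside the GENCODE span of CSRNP1. The other RefSeq window, chr3:39154642-39154891, lies just before that span. Both overlap exons of the antisense gene AC092053.2. Capitals mark TGACG, the core of the cyclic AMP response element, on either strand (CGTCA on the printed strand where the core lies on the other).
CSRNP1: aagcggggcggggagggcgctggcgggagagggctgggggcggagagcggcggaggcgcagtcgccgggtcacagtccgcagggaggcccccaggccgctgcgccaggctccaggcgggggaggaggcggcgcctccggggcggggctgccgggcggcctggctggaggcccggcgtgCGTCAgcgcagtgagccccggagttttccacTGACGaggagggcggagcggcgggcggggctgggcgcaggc

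The cores begin 72 and 41 bases before the start, and IER2 holds 1, beginning 140 bases before its start. In the IER2 window 223 of the 250 bases, the core among them, are exonic in the neighbouring coding gene STX10. TGACG was found in 21.2% of all windows, in an entry of 35.5% of the 10131 tested coding genes with one, and of 45% of the 180 called higher. A second CSRNP1 window and those of CSRNP2 and CSRNP3 held no match to any motif searched. The CSRNP3 window, chr2:165572086-165572335, lies far inside the GENCODE span of that gene, so the bases before that span were not searched. In the CSRNP2 window 68 of the 250 bases are exonic in CSRNP2 itself. The windows of the members are therefore not alike in position. The full response element, TGACGTCA, was in none of the windows of the 6 members with an entry and in 1.65% of all windows. The AP-1 site (TGACTCA and its variant TGAGTCA) was likewise absent from the members' windows, against 4.2% of all. For EGR the letters GCGGGGGCG and GCGTGGGCG were searched, with 0 members against 5.37%. NF-kB was searched as GGGACTTTC, as the form GGAATTTCC and as the form GGGGATTCC, with 0 members against 0.991%. The ETS motif CCGGAAGT, the exact TATA box letters TATAAA and the CArG box of SRF also matched 0 members, against 3.42%, 10.7% and 1.16%. Near matches were not counted, such as tatataag in the IER5 sequence printed above, so a TATA box is not shown to be absent. Among the tested coding genes with an entry, the shares were 3.34% for TGACGTCA, 4.31% for AP-1, 11.4% for EGR and 1.41% for NF-kB. They were 8.16% for ETS, 8.0% for TATAAA and 1.51% for the CArG box. For the 180 called higher, the shares were 7.78% for TGACGTCA, 6.11% for AP-1, 9.44% for EGR and 7.22% for NF-kB. For ETS, TATAAA and the CArG box they were 0.556%, 21.7% and 3.33%. Motifs that the members lack thus also differed in share between called and tested genes, and no such difference was tested. All motifs were searched on both strands, TGACG also counting where it lies inside TGACGTCA. IER3 had no entry in the table.

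Genes next to the members were examined to see whether the difference extended along the chromosome. Of the 14 nearest coding genes, 11 were tested and 0 were called by edgeR in either direction, where 2.07% of all tested genes were called. A count of 0 of 11 is near that share and does not show where a difference along the chromosome ends. The unadjusted p was under 0.05 for 3 (DDR1 and MR1 higher and LETMD1 lower in SCC), and DESeq2 called 1 (DDR1). STX10, which encodes a syntaxin and starts 32 bases from IER2 on the opposite strand, was at 45.7, 43.4 and 43.2 CPM in SCC and 44.5, 39.1 and 37.0 in RCC. These groups overlapped, and the log2 fold change was 0.13 ± 0.088 (edgeR adjusted p 0.416). For FLOT1, which encodes a membrane raft protein and lies 466 bases from IER3, the log2 fold change was 0.11 ± 0.065 (adjusted p 0.368). DDR1, a collagen receptor kinase gene 131867 bases from IER3 on its other side, differed by 0.43 ± 0.10 on the log2 scale (adjusted p 0.0682) and was called in 7 of 16 alternatives.

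The remaining neighbours were smaller in difference or expression. Log2 fold changes were 0.36 for MR1 beside IER5, 0.11 for PTPA, itself an activator of PP2A, and 0.06 for NTMT1 beside IER5L, and -0.06 for TTC21A beside CSRNP1. They were -0.27 for LETMD1 and -0.09 for TFCP2 beside CSRNP2, and -0.23 for SCN2A and -0.16 for GALNT3 beside CSRNP3. The signs for STX10, FLOT1, PTPA and NTMT1 turned with the GC offset, and those for TTC21A and SCN2A when certain libraries were left out.

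**Figure D3:**
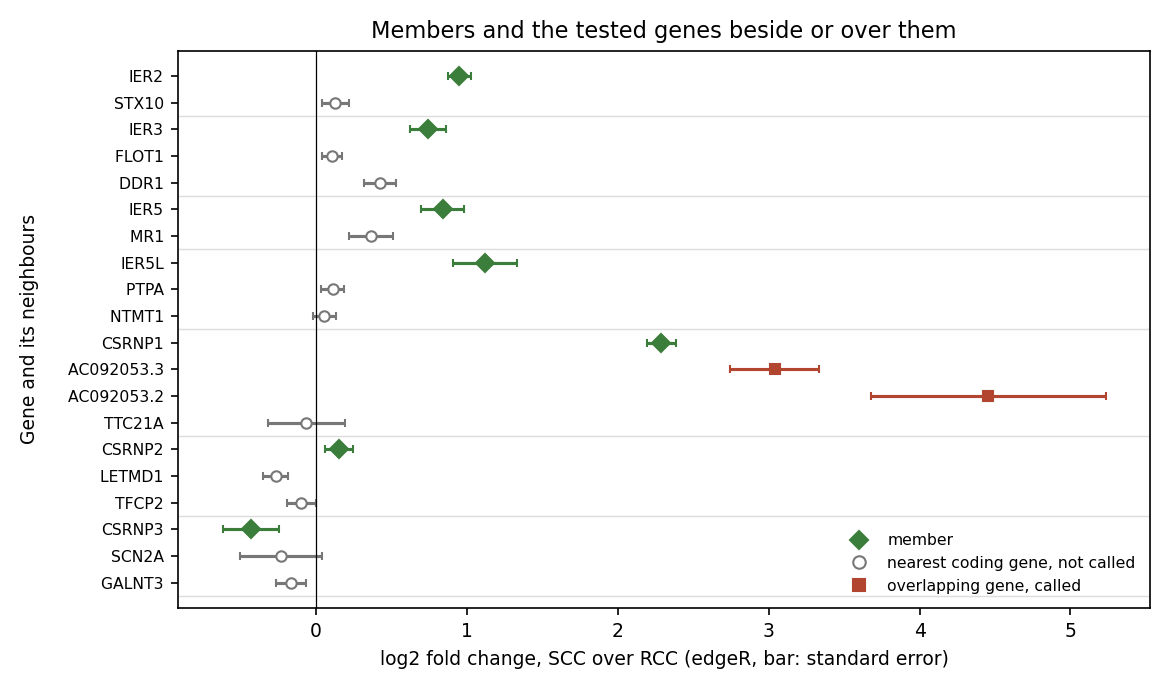
Log2 fold change of SCC over RCC with its standard error (x axis) for each member (green diamonds) and for the tested genes beside it (open circles) or overlapping it (red squares). The nearest coding genes lie between -0.27 and 0.43, and the antisense genes over CSRNP1 lie at 3.04 and 4.45.

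Antisense genes overlap 4 of the members, and only those over CSRNP1 passed the filter. The span of AC092053.3 shares 6282 bases with that of CSRNP1, introns included. AC092053.3 was at 6.38, 5.88 and 4.79 CPM in SCC and 0.435, 0.573 and 1.12 in RCC. It rose by a log2 fold change of 3.04 ± 0.30 (edgeR adjusted p 3.0e-04). AC092053.2, which shares 1657 bases of span with CSRNP1, had 54, 13 and 17 counts in SCC and 0, 2 and 1 in RCC (edgeR adjusted p 0.015). Leaving out RCC replicate 1, 2 or 3 ended the call (adjusted p 0.102, 0.0640 and 0.0924). The library kit named in the labels and the files do not give the strand used in counting. Where exons overlap, reads of CSRNP1 and of its antisense genes therefore cannot be told apart. The extent of the exonic overlap was not measured.

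Most tested genes of the immediate early class were called higher in SCC, a list chosen with these results known. Of 45 other immediate early genes, 42 were tested, and edgeR called 28 higher in SCC and 0 lower. Over all tested genes it called 1.69% higher and 0.378% lower. The median log2 fold change of the list was 0.95 against 0.00 over all tested genes. The count lower was also 0 at an unadjusted p under 0.05 and with DESeq2. FOSB, FOS and ATF3, which encode bZIP transcription factors, had the highest changes under the naming rule, at 4.95 ± 0.16, 3.12 ± 0.095 and 2.81 ± 0.15 (edgeR adjusted p 4.1e-08, 4.1e-08 and 2.3e-06). TNFAIP3, which encodes the NF-kB inhibitor A20, was at 31.8, 26.8 and 32.1 CPM in SCC and 6.52, 5.64 and 5.87 in RCC, a change of 2.33 ± 0.12 (adjusted p 1.6e-06). Between 24 and 31 were called higher when single libraries were left out. With the GC offset, or without SCC replicate 1, 1 gene was called lower, the cytokine signalling inhibitor SOCS3.

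Delayed genes of the ERK pathway gave no call. These are the feedback inhibitors and growth factors that follow the first wave, among them DUSP6, SPRY4, FOSL1, PHLDA1 and EREG. All 25 were tested, and edgeR called 0 higher and 0 lower. Over all tested genes it called 2.07% in either direction, so a count of 0 in so short a list is near that share. With unadjusted p-values under 0.05, 5 were higher and 0 lower, and DESeq2 called 0. The median log2 fold change was 0.08. Without SCC replicate 1, 3 were called higher (DUSP6, EREG and HBEGF), and without SCC replicate 2, 1 (KCNN4). The difference between the lists was not tested.

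The kinases and transcription factors known to act on immediate early promoters also gave 0 calls of 26 in the edgeR fit. This too is near the 2.07% called over all tested genes. Unadjusted, 5 were higher and 3 lower at p under 0.05, and DESeq2 called RELA higher and ELK4 lower. SRF, the serum response factor, was at 148, 103 and 116 CPM in SCC and 108, 108 and 109 in RCC, with overlapping groups. Its log2 fold change of 0.18 ± 0.11 (edgeR adjusted p 0.386) turned to -0.03 with the GC offset and was 0.02 without SCC replicate 1. Without SCC replicate 1, RELA was called higher and CREB1 and ELK4 lower, and without SCC replicate 2, RELA and RPS6KA2 higher and ELK4 lower.

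**Figure D4:**
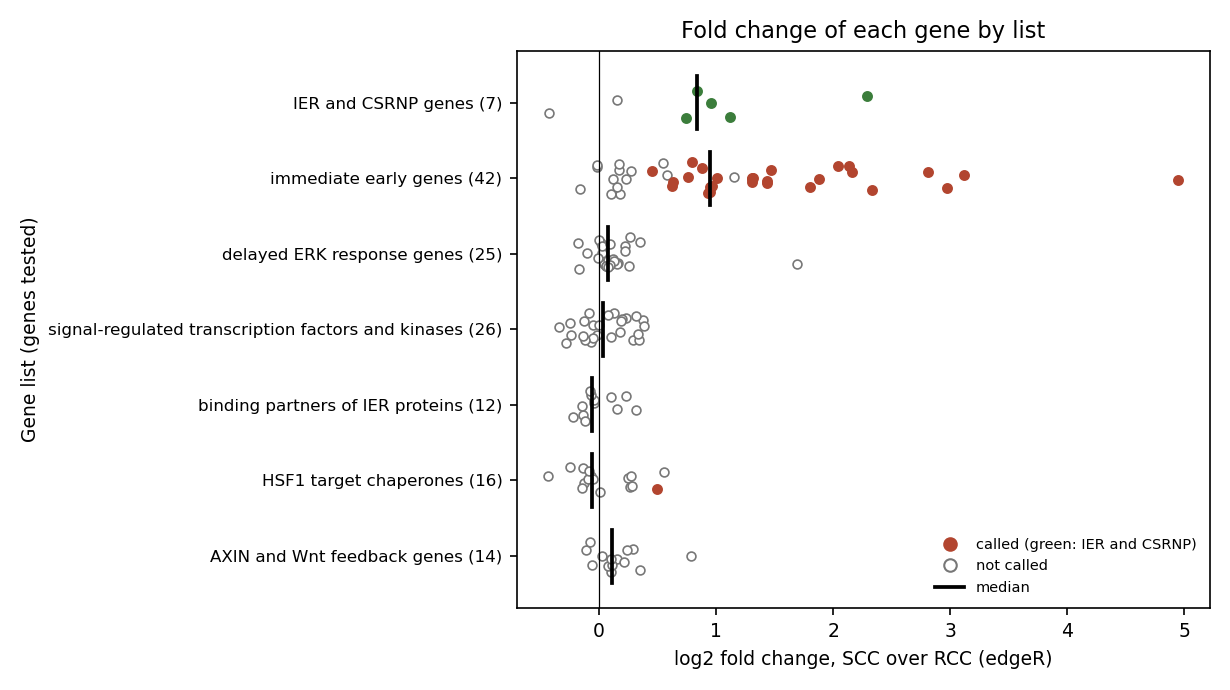
Log2 fold change of SCC over RCC (x axis) for the 7 members and every tested gene of 6 lists (rows), filled where called by edgeR at an adjusted p under 0.05, with the median as a black bar. The immediate early genes spread up to 4.95 with a median of 0.95, and the delayed ERK genes centre at 0.08 with 0 filled points.

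Known binding partners of the IER proteins gave no call. The list held, among others, HSF1, PP2A phosphatase subunits (partners of IER2, IER5, IER5L or IER3), MCL1 and ATP5IF1. Of 14 genes 12 were tested and edgeR and DESeq2 each called 0, where edgeR called 2.07% of all tested genes in either direction. Unadjusted p-values under 0.05 numbered 0 for higher and 1 for lower genes. HSF1 was at 197, 122 and 133 CPM in SCC and 113, 120 and 130 in RCC, the first SCC library alone being high. Its log2 fold change was 0.32 ± 0.15 (adjusted p 0.267), which was 0.08 without that library and 0.02 with the GC offset. PPP2R2A, the B55 alpha subunit, had one of -0.05 ± 0.081 (adjusted p 0.767), which was 0.09 with the GC offset.

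The chaperone genes that HSF1 activates gave 1 call higher among 16 tested, and 0 lower, where 1.69% of all tested genes were called higher. HSPA1B was at 124, 96.7 and 104 CPM in SCC and 72.6, 79.9 and 78.3 in RCC, a log2 fold change of 0.49 ± 0.094 (edgeR adjusted p 0.024). It has a near-identical copy, HSPA1A, so its value is uncertain. The call was lost when SCC replicate 3 was left out, and with RCC replicate 1, 2 or 3 left out (adjusted p 0.0533, 0.161, 0.0954 and 0.128). The median of the list was -0.06. Before adjustment 4 were higher and 2 lower at p under 0.05. DESeq2 called 2 higher (HSPA1B and DNAJB1). Without SCC replicate 1 there were 3 higher (those and HSPA1A) and 2 lower (CHORDC1 and HSPE1), and without SCC replicate 2 there were 2 higher (HSPA1B and DNAJB1) and 1 lower (HSPE1).

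AXIN1, which induces CSRNP1 and scaffolds the beta-catenin destruction complex, was at 70.4, 55.0 and 59.4 CPM in SCC and 52.1, 48.8 and 50.4 in RCC. Its log2 fold change was 0.29 ± 0.095 (edgeR adjusted p 0.144), and was 0.04 under the GC offset and 0.18 without SCC replicate 1. In the list of AXIN and Wnt feedback genes, 14 of 17 were tested and edgeR and DESeq2 each called 0 in either direction. Over all tested genes edgeR called 2.07%. Of unadjusted p-values under 0.05, 1 was higher and 0 lower. Without SCC replicate 2, AXIN1 was called higher (adjusted p 0.0496).

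The genes whose profile over the 6 libraries lay nearest to each member were found by the Euclidean distance between centred log2 CPM values. Such profiles share the libraries, and the distances are descriptive. For CSRNP1 the nearest were TNFAIP3 (distance 0.194), CYP1B1 (0.288), an aryl hydrocarbon receptor target, and HES1 (0.391), a Notch target. For IER2 they were GADD45B (0.145), MAP3K8 (0.161) and KLF4 (0.178). These are, in turn, a stress-response gene, a kinase gene of the ERK pathway and a transcription factor gene. For IER3 they were MMP15 (0.110), LRP1 (0.125) and MISP (0.135), and for IER5 PLA2G6 (0.147), HR (0.159) and RHOV (0.160). IER5L was nearest to ZFPM1 (0.186), RHOV (0.228) and IRS2 (0.299), so RHOV was near to both IER5 and IER5L.

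The members without a higher level had other neighbours. CSRNP2 was nearest to GPANK1 (0.020), MIGA2 (0.044) and MED24 (0.050), and CSRNP3 to SPICE1 (0.106), RFX3 (0.115) and the pseudogene CCT6P3 (0.119). Among the members themselves, IER3 and IER5 were closest at 0.309, then IER5 and IER5L at 0.362, whereas CSRNP1 was 1.57 or more from every other member.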

How the data were processed

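The authors deposited a table of counts, whole numbers for each gene, and one of FPKM values, both listing gene lengths. HISAT2 2.0.5 and featureCounts 1.5.0-p3 are named in the submitters' processing notes, and the genome build, strand setting and filters are not given in the sources used here. All 58735 rows matched GENCODE release 29 on GRCh38 by gene ID and position, and 27 names turned into dates were restored. Each deposited FPKM value equalled count over length and 1 constant per library, to a relative spread of at most 1.36e-08. Libraries were made from 1.0 µg of total RNA.

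Counts were filtered with filterByExpr (minimum count 10), scaled by TMM and tested for SCC against RCC with edgeR 4.0.16 (R 4.3.3), two-sided, with Benjamini-Hochberg adjustment over 15881 genes and calls under 0.05. Standard errors are the fold change over the square root of F. P-values set the difference between the groups against the spread between 3 libraries per group, which edgeR moderates with that of all tested genes. Depth limits CSRNP3 most.

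Members and lists were chosen with earlier results of these data known. The 7 lists held 157 different genes, 7 of them in more than 1 list, and the results of some genes and of 1 list, in which genes were also called higher, are not reported here. Named list genes were up to 4 called genes per list with the largest change, at least 5 CPM and groups without overlap, every lower one, and HSF1, SRF, PPP2R2A and AXIN1. Neighbours and the 3 nearest profiles were also named. Other names were chosen after their values were seen. Alternatives were DESeq2 1.42.0, RLE scaling, other filters, a replicate block, a GC offset (lowess span 0.3), each library left out, and limma 3.58.1 on log2(FPKM + 1) or log2(FPKM + 0.1). The FPKM filter was 1 in 3 libraries. The fits were tested on simulated data. Promoter sequences are RefSeq's, GRCh38.p14, with entries for 6 of 7 members.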

Additional observations from a re-analysis of the deposited data

How the results depend on the processing

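Same-numbered SCC and RCC libraries did not vary together (correlations -0.01, 0.02 and -0.08), so the replicate block is an alternative only. With the replicate block, 106 genes were lower over all genes in place of 60, 1 nearest coding gene was called (DDR1), and 5 members were called as without it. The block with the GC offset gave 605 higher and 425 lower genes, and the GC offset alone 507 and 234. DESeq2 gave 480 and 170, and a test of all genes with 1 count or more 995 and 315. Limma gave 130 and 36 on log2(FPKM + 1), 117 and 34 on log2(FPKM + 0.1), and 48 and 1 on log2(FPKM + 1) without a filter, and called 2 members in each. These compare with 268 higher and 60 lower genes. The cause was not tested.

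Without a filter on FPKM, 17 immediate early genes were higher. With the GC offset, alone and with the block, 1 immediate early gene (SOCS3) and 1 delayed ERK gene (IL11) were lower. Delayed ERK genes called higher numbered 4 with every gene tested, 2 with the GC offset and 3 with block and offset. Among factors and kinases DESeq2 called 1 higher and 1 lower, and testing every gene gave 5 higher, of which HSF1 was the 1 binding partner. HSF1 targets called higher numbered 2 with DESeq2, 5 with every gene tested and 0 in the FPKM fits, and 1 was lower with every gene tested and with block and offset. Of the nearest coding genes 1 was higher (DDR1) with DESeq2, with every gene tested and with the GC offset with and without the block, and 1 was lower (CACNA1A) with every gene tested. Of the antisense genes only 1 was tested at a minimum of 10 counts in every library, and it was called. The filtered FPKM fits tested 0 of them, and the FPKM fit without a filter tested 4 and called 0.

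Leaving out 1 library at a time gave 99 to 642 higher and 8 to 343 lower genes, and 2 to 5 members. It gave 0 to 1 lower immediate early genes and 0 to 3 higher delayed ERK genes. Factors and kinases gave 0 to 2 higher and 0 to 2 lower, HSF1 targets 0 to 3 higher and 0 to 2 lower, and AXIN and Wnt genes 0 to 1 higher. Nearest coding genes gave 0 to 1 higher and 0 to 1 lower, and antisense genes 1 to 2 higher. Signs turned with the GC offset, alone and with the block, for SRF (-0.027 and -0.028), PPP2R2A (0.088 and 0.088), STX10 (-0.10 and -0.11), FLOT1 (-0.016 and -0.016), PTPA (-0.052 and -0.050) and NTMT1 (-0.11 and -0.11). TTC21A turned without SCC replicate 1 (0.015) or 3 (0.063) and without RCC replicate 1 (0.032) or 3 (0.021), and SCN2A without RCC replicate 1 (0.020). With single libraries left out, these ranged from -0.30 to 0.063 for TTC21A and from -0.47 to 0.020 for SCN2A. No member changed sign in any alternative run.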
